A study of Mus musculus with 10 samples.

Results

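Peaks of N6-methyladenosine (m6A) in transcripts that carry only a provisional name, those called Gm followed by a number and those ending in Rik, made up 415 of 15009 peaks in the WT list and 196 of 3673 peaks in the Mettl14 KO list. They were chosen by the gene name the authors gave each list entry, which took 418 of 15091 WT and 199 of 3733 KO entries, and overlapping entries of a list on the same strand were then merged. The peaks belonged to 401 gene names, of which 255 had a WT peak and 188 had a KO peak. No measured value entered the choice.

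The study profiled polyadenylated RNA of cortex and hippocampus from mice at postnatal day 5. WT animals gave 3 m6A IP and 3 input libraries, and animals with a Nestin-Cre driven Mettl14 KO gave 2 IP and 2 input libraries. Nestin-Cre acts in neural progenitors and their descendants, so vessel, blood and microglial cells of the tissue keep the gene. Age, tissue and RNA selection were shared by both genotypes, and a serum-free medium is listed under growth conditions, which leaves it unsettled whether the RNA came straight from tissue. Nothing in the labels says whether libraries of a genotype came from separate animals.

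N6-methyladenosine is the most common internal modification of mRNA. METTL14 is the partner that METTL3 needs to methylate adenosines, mostly in a GGAC-like context, and methylated sites in mRNA are known to gather in long exons and near stop codons. In m6A-seq an antibody pulls down RNA fragments that carry the mark, and stretches enriched over input are called as peaks. Gm names are given to predicted gene models and Rik names to clones of the RIKEN full-length cDNA collection. Many of these genes are long noncoding RNAs, and others are protein-coding genes that had not yet received an approved symbol.

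The authors deposited 1 consensus list for each genotype, with a position, a strand, exonic blocks and a p-value for each peak. These p-values are the authors' own and were used here to describe and rank peaks within a list. Since there are no values per library, no replicate error and no test can be given. Shares carry a Wilson 95% interval, which covers counting error over peaks or genes only, and stand beside the same share over all peaks. The depth of the libraries and the expression of the genes are unknown here, so an absent peak and a weakly expressed transcript cannot be told apart, nor can fewer cells of a type and less RNA per cell. For the same reason the loss of Mettl14 could not be checked in the lists. Of 7 neuronal marker genes, 6 had a WT peak and 6 a KO peak, with Snap25 in neither list. All 7 cortical and hippocampal markers had a WT peak and 5 had a KO peak. Of 6 astrocyte markers 6 and 5 had one, and of 6 oligodendrocyte lineage markers 5 and 1. Of 6 markers of cells outside the Nestin lineage, 4 had a WT peak and 1 had a KO peak, with the globin genes Hbb-bs and Hba-a1 in neither list.

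Sequence could be read for only a small part of the member peaks, and some of it is shown first, with microRNAs of member genes. The results on overlap, recurring p-values and gene ends further below do not rest on it. Among the long noncoding members is C130071C03Rik, a brain transcript that hosts a copy of miR-9, the microRNA known for its role in neural progenitors. Its only peak, at chr13:83738469-83738887 on the plus strand (GRCm38), spanned 419 bases, had a listed p of 1e-290 in WT and had no KO counterpart. It covered all 72 bases of the Mir9-2 hairpin at chr13:83738814-83738885. The hairpin is shown with both mature arms in capitals and the mature arms with their seeds (bases 2 to 8) in capitals, from RefSeq sequences placed on GRCm38.p6.
Mir9-2 hairpin: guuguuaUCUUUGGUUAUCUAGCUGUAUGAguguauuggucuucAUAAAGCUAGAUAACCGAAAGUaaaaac
mmu-miR-9-5p: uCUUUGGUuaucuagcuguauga
mmu-miR-9-3p: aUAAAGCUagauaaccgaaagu

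In the other members that host a microRNA no peak covered any base of the hairpin, and the distance between them ran from 0 to 87554 bases. In 2700081O15Rik, the 70-base hairpin of Mir6991 at chr19:7422573-7422642 lay exactly between the blocks of a WT peak and of the KO peak that overlapped it, so that 0 bases separated either peak from the hairpin and none of the hairpin was inside. The Mir339 hairpin lay between blocks of the peak of 3110082I17Rik that both lists hold, 5486 bases from the nearest block. A330023F24Rik, the host of Mir29b-2 and Mir29c, had no WT peak and a KO peak of 150 bases that ended 18203 bases before the first hairpin. The miR-29 arms below have the seed AGCACCA in common, while those of the other hosts do not share theirs.
mmu-miR-6991-5p: uGGAGAACagggacugggccug
mmu-miR-6991-3p: gCAGCCCUuuguucuucuccag
mmu-miR-339-5p: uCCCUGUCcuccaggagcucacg
mmu-miR-29b-3p: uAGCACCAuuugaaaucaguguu
mmu-miR-29c-3p: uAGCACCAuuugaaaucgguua

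RefSeq promoter windows (250 bases before to 50 after a gene start) held at least 40 bases of 28 WT and 9 KO member peaks. Of the 28 WT stretches, 15 lay in the window of their own gene and 13 in that of a gene on the opposite strand, and 5 of those 13 peaks crossed the start of the opposite gene. The letters GGAC were searched on the strand of the transcript, with GGACT as its longer form that overlaps it, and GGAC stood in 12 of the 28 WT and 1 of the 9 KO stretches. GGACT stood in 7 and 0 of them. Averaged over windows of the same lengths and strands, taken at the gene side of all promoter windows, GGAC stands in 27.6% for the WT stretches and 21.7% for the KO stretches, and GGACT in 8.76% and 6.45%. The WT stretches ran from 42 to 300 bases and the KO stretches from 47 to 121, so the WT and KO counts are not like for like. A match is a description of the letters, not a methylated site. The stretches below were chosen to show peaks in the promoter window of another gene and a peak that both lists hold. They do not represent the share with GGAC. Each WT stretch shown from the window of another gene holds it. Those of Gm3230, 2010320M18Rik, 9330151L19Rik, D330050I16Rik and 2610002M06Rik, not shown, do not. The 1 KO stretch with GGAC, that of F930015N05Rik, is not shown either. The stretches shown come from 5 WT and 2 KO peaks and are given on the strand of the transcript on GRCm38, with GGAC in capitals.
Gm4532, WT, chr7:127232811-127233110, minus strand: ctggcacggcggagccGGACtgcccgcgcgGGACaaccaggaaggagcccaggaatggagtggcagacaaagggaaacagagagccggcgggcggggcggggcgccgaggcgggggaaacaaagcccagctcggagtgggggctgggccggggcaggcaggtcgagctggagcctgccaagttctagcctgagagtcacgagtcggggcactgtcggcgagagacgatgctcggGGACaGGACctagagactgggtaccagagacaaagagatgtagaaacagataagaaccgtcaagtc
A930004D18Rik, WT, chr2:18027070-18027219, minus strand: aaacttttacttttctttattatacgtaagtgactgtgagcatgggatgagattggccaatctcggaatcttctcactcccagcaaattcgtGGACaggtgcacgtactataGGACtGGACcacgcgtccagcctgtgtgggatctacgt
A630072M18Rik, WT, chr5:20951773-20951975, plus strand: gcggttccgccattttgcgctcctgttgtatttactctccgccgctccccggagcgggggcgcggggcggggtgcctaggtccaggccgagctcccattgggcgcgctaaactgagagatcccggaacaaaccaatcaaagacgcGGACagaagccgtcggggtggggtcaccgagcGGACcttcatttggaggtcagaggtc
1700008J07Rik, WT, chr7:127511861-127512032, minus strand: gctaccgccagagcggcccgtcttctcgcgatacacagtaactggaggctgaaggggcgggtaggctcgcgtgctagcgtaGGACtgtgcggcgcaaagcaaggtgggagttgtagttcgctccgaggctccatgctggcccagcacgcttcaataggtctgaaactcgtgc
Gm15612, WT and KO, chr6:88842854-88842903, plus strand: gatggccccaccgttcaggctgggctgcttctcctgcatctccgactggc
Gm5069, KO, chr1:180330340-180330460, minus strand: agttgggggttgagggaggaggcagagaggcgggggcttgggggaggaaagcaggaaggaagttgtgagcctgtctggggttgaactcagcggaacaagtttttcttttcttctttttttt

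The Gm4532 stretch, 300 bases of a 476-base peak, covers the start of Zfp553 on the other strand and holds GGAC 4 times. Of all 32851 promoter windows, 65.6% hold GGAC on the strand of their gene and 66.1% on the other strand. The A930004D18Rik stretch, which ends before the start of Gm17762, has 3 matches in 150 bases, a length at which 42.5% of windows hold GGAC on the other strand. The A630072M18Rik stretch, across the start of Rsbn1l, holds it 2 times in 203 bases (52.9% of windows of that length), and 1700008J07Rik, across the start of the chromatin remodeller gene Srcap, once in 172 bases (47.1%). Gm15612, whose peak begins in its own promoter window and recurs in KO, shows no GGAC in the 50 bases given (18.9% of windows on the strand of the gene), and neither does the KO peak of the pseudogene Gm5069, which lies in the window of Itpkb but does not cross its start (36.0% on the other strand). The rest of these peaks was not searched. The percentages are of windows with at least 1 match, so they give no background for the number of matches.

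Long noncoding RNAs were the main type among the members. In the RefSeq gene table, 234 of the 401 names were long noncoding (58.4%), 141 were protein coding (35.2%) and 25 were pseudogenes, and Gm5468 was not listed. Over all 8516 genes with a peak, 3.48% were long noncoding and 95.8% protein coding. In all, 8 names were found through a synonym. Among them 2900097C17Rik is Norad, a noncoding RNA known to bind Pumilio proteins, C530008M17Rik is Cracd, and both 6430706D22Rik and A730008H23Rik stand for Hjurp, the chaperone that loads the centromeric histone.

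The lists differed in which members they held. In the WT list 223 member peaks were in protein-coding genes (53.7%) and 171 in long noncoding genes (41.2%). In the KO list more peaks were in long noncoding genes, 137 (69.9%) against 47 in protein-coding genes (24.0%). Provisional names made up 2.77% of WT peaks (95% interval 2.51 to 3.04) and 5.34% of KO peaks (4.65 to 6.11). The KO list is shorter and comes from fewer libraries, so these are shares of lists of unequal length.

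Counted by gene, 213 members (53.1%) had peaks in WT alone, 42 (10.5%) in both lists and 146 (36.4%) in KO alone. Over all genes with a peak these shares were 66.2%, 24.4% and 9.38%. Among genes with a KO peak, 77.7% of members had no WT peak (71.2 to 83.0), against 27.8% of all such genes. Of the long noncoding members, 102 were in WT alone, 20 in both and 112 (47.9%, 41.5 to 54.2) in KO alone. Of the protein-coding members, 97 were in WT alone, 20 in both and 24 (17.0%, 11.7 to 24.1) in KO alone. The 62 long noncoding genes with other names were in KO alone in 32.3% of cases (22.0 to 44.6), and the 8016 protein-coding genes with other names in 7.67%.

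**Figure D1:**
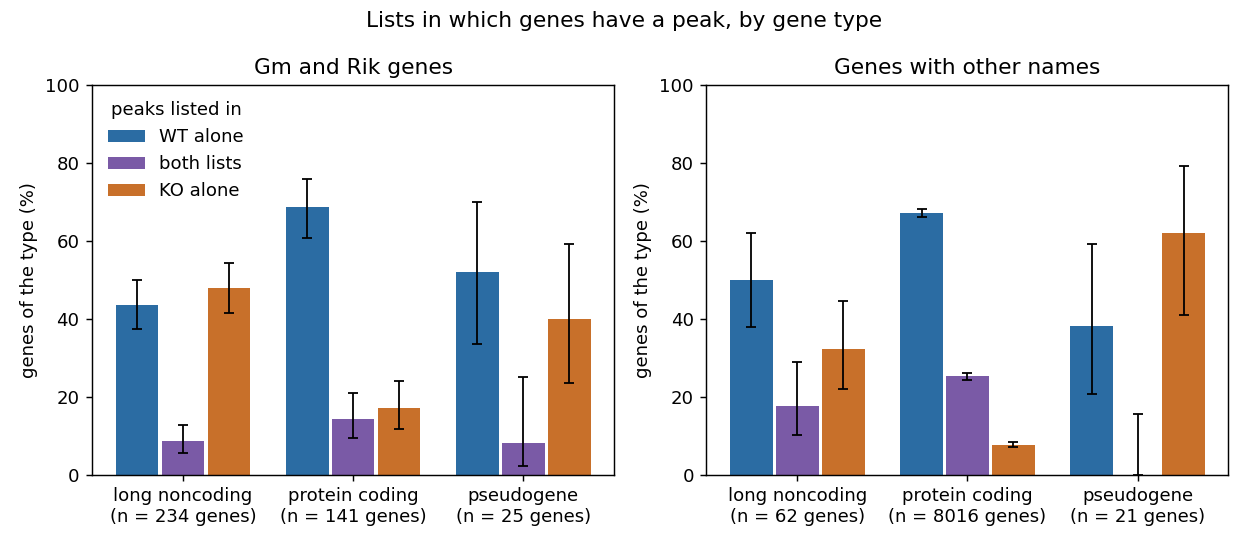
Bars give the percentage of genes of each type whose peaks were listed in WT alone (blue), in both lists (purple) or in KO alone (orange), for Gm and Rik genes on the left and for genes with other names on the right; error bars are Wilson 95% intervals over genes and n is the number of genes. Among Gm and Rik genes, 47.9% of long noncoding and 17.0% of protein-coding genes were in KO alone.

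Of the 415 WT member peaks, 26 (6.27%, 4.31 to 9.02) were overlapped by a KO peak, here called retained, against 12.9% of all WT peaks. The share was 5.83% in protein-coding (13 of 223) and 5.85% in long noncoding members (10 of 171), and 3 of 20 peaks in pseudogenes were retained. Long noncoding genes with other names retained 15 of 74 peaks (20.3%, 12.7 to 30.8). Meg3 supplied 7 of these 15, and without it the share was 8 of 65 (12.3%, 6.37 to 22.5). Gm names retained 12 of 103 peaks (11.7%, 6.79 to 19.3) and Rik names 14 of 312 (4.49%, 2.69 to 7.39). The interval for Gm names included the share of all WT peaks, and that for Rik names lay below it. Counted by gene, 24 of 255 members with a WT peak had a retained one (9.41%, 6.41 to 13.6), against 20.6% of all genes with a WT peak.

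In the other direction, 26 of 196 KO member peaks lay over a WT peak (13.3%, 9.22 to 18.7), against 57.1% of all KO peaks. The share was 29.8% in protein-coding members (18.7 to 44.0) and 7.30% in long noncoding members (4.01 to 12.9). For KO peaks in genes with other names it was 60.1% in protein-coding and 36.2% (24.0 to 50.5) in long noncoding genes, the latter 23.7% (13.0 to 39.2) without Meg3.

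**Figure D2:**
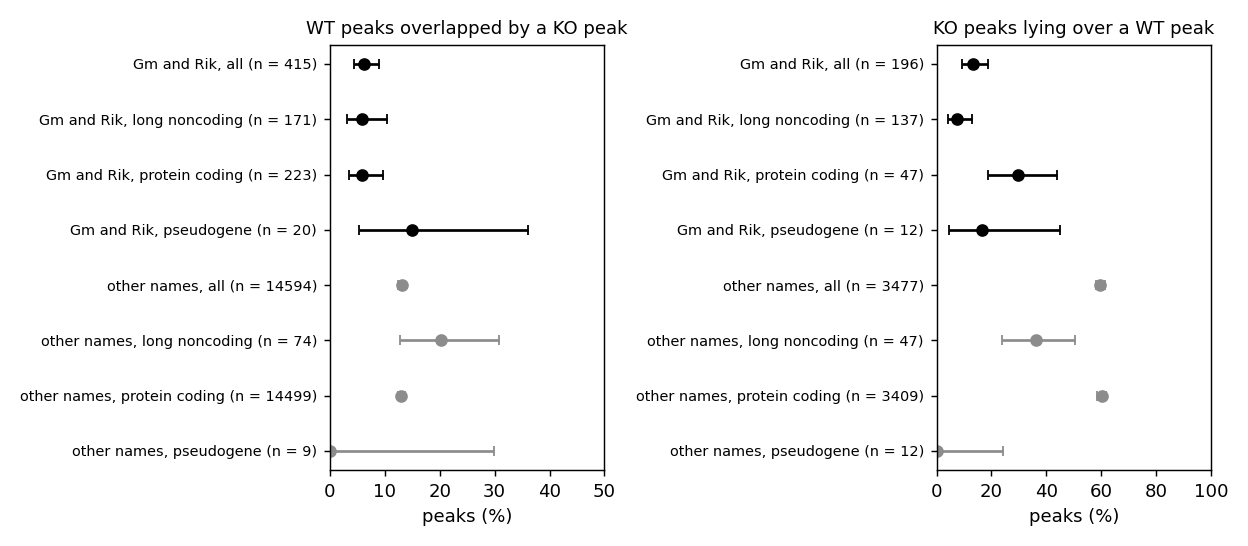
Points give the percentage of WT peaks overlapped by a KO peak (left) and of KO peaks lying over a WT peak (right), with Wilson 95% intervals over peaks, for Gm and Rik genes (black) and genes with other names (grey) by gene type; n is the number of peaks. The point for all Gm and Rik peaks is at 6.27% on the left and at 13.3% on the right.

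Member peaks were narrower and weaker than WT peaks in general, and the retained share was highest in the strongest classes. The median exonic width was 181 bases in WT members (range 60 to 1440) and 208 bases over all WT peaks, and the median listed p was 4e-29 against 1e-41. In KO the median width was 150 bases, against 151 over all KO peaks, and the median listed p 3.2e-12 against 3.2e-15. When the WT list was split by p into 5 classes of nearly equal size, 57 member peaks (13.7%) fell in the strongest class and 125 (30.1%) in the weakest. From the strongest class to the weakest, members were retained in 17.5%, 10.1%, 5.06%, 1.18% and 3.20% of cases, and all WT peaks in 30.9%, 14.0%, 9.49%, 6.40% and 3.53%. For Gm and Rik names together, the share lay below that of all peaks in each of the 5 classes. Rik names alone did so too. With classes numbered from 1 (strongest) to 5, Gm names lay above all peaks in class 1 (33.3% of 15 peaks). They also did in class 3 (27.3% of 11) and class 5 (5.41% of 37), and lay below in classes 2 and 4. For members as a whole, the interval of the strongest class, 9.82 to 29.4 on 57 peaks, ended below the share of all peaks. That of class 4 ended at 6.37, against 6.40%. The intervals of classes 2 and 3, with upper ends of 19.5 and 12.3, included the share of all peaks. So did that of the weakest class, 1.25 to 7.94 on 125 peaks. The split by p was added after the data had been seen.

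**Figure D3:**
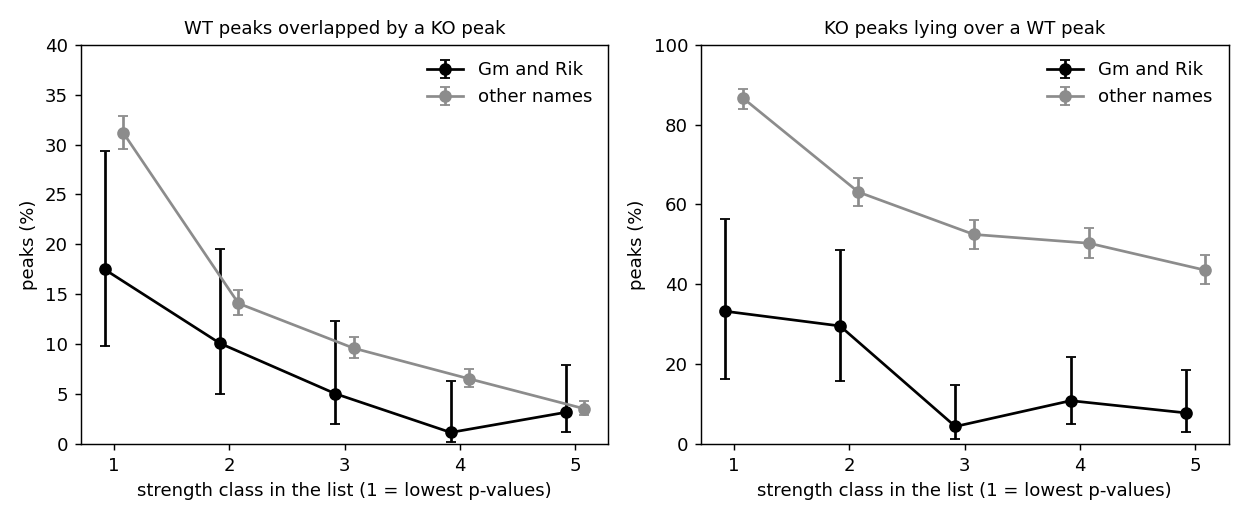
The percentage of WT peaks overlapped by a KO peak (left) and of KO peaks lying over a WT peak (right) is plotted against the strength class of the peak in its own list, from 1 (lowest listed p-values) to 5, for Gm and Rik genes (black) and genes with other names (grey), with Wilson 95% intervals over peaks. In class 1 of the KO list 33.3% of Gm and Rik peaks lay over a WT peak, and in class 5 this was 7.84%.

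The retained peaks were found in 10 protein-coding, 10 long noncoding and 4 pseudogene members. Their median width was 306 bases, against 180 for the members that were not retained, and 11 of 26 (42.3%) crossed an exon junction, against 13.6%. Over all WT peaks the median width was 359 bases for those retained and 181 for the others, so the width contrast was not particular to members. Of all WT peaks 23.5% crossed an exon junction. That share was not split by retention, so the junction contrast has no such background. Since 1 shared base is enough, a wider peak is also more easily counted as retained. In 19 of the 26 pairs the KO peak was the narrower and lay wholly inside the WT peak, and in 4 it was the wider. C530008M17Rik (Cracd, a regulator of actin capping) had the widest member peak in each list. Its WT peak at chr5:76855089-76857741 had 1440 exonic bases and a listed p of 0, too small to be held, and the KO peak at chr5:76856452-76857531 took up 1080 of these bases and was also listed at 0. A second WT peak of 690 bases shared 61 bases with a KO peak, and a further KO peak of 121 bases lay between.

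Gm42372, a coding gene at chr7:16983083-16988146, had WT peaks of 840, 361 and 390 bases. The last of them lay inside a KO peak of 600 bases with a listed p of 1e-201, the first shared 181 bases with a narrow KO peak, and the middle one had no KO counterpart. In 2700081O15Rik, 2 of 3 WT peaks were retained, the wider from 1226 to 210 bases. B230209E15Rik kept 358 of the 418 bases of its WT peak and had a second KO peak of 418 bases near its end, at chr7:61529738-61530155, where WT had none.

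Identical borders occurred in 2 pairs. The 121-base peak of D430041D05Rik, split over 2 exons at chr2:104205230-104208191, was listed at 1.3e-11 in WT and 6.3e-20 in KO, whereas the other 4 WT peaks of this gene, near its end, were not retained. The 239-base peak of 5730409E04Rik at chr4:126613330-126613568 was listed at 1e-30 and 1.6e-28, and its other 4 WT peaks were not retained. A KO peak much wider than its WT counterpart was found in Gm5415, where a 181-base WT peak (p 1.6e-11) lay inside a KO peak of 1051 bases (p 1e-262) at chr1:32544175-32545225. This gene lies opposite Khdrbs2. At the other end, the peaks of Gm44505 shared only 4 bases.

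Some retained peaks cannot be assigned to the member alone. Gm20716 shares its WT peak of 1143 bases with Adnp, a chromatin factor gene needed in brain development, and Gm44505 shares its peaks with Zfp91. The retained peak of the pseudogenes Gm10052 and Gm5643 is shared with Hnrnpa1, the gene of an RNA-binding splicing factor, and the KO entry names Hnrnpa1 only. Gm16386 and Gm5124, also pseudogenes, had retained peaks under their own names, of 150 and 299 bases in WT. Across the lists, 29 WT (6.99%) and 7 KO member peaks (3.57%) carried a second name outside the rule.

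**Figure D4:**
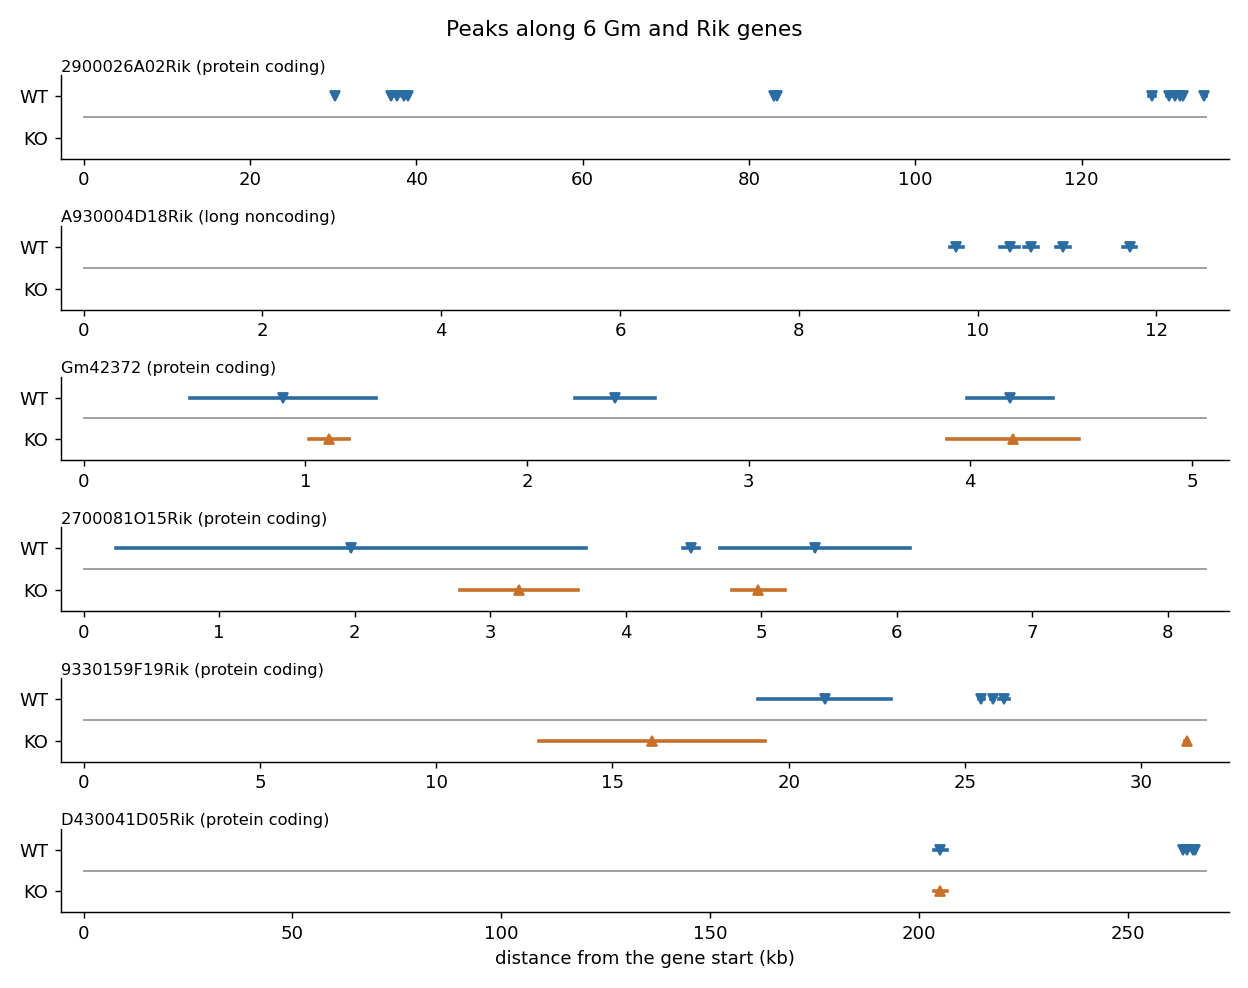
Positions of WT (blue) and KO (orange) peaks are drawn along 6 Gm and Rik genes, with the distance from the gene start in kilobases on each horizontal axis; lines run from the first to the last base of a peak, introns within it included, triangles mark the midpoint, and the grey line is the gene. 2900026A02Rik and A930004D18Rik show WT peaks alone, and in D430041D05Rik the peak that both lists hold has the same borders.

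Members with many WT peaks and no KO peak were mostly protein coding. 2900026A02Rik had 13 WT peaks with 2978 exonic bases in all, spread over much of its span at chr5:113086323-113221292, and listed p-values from 2e-73 to 5e-08. 6430548M08Rik and 1700017B05Rik had 5 each (1412 and 482 bases). A830010M20Rik (Btbd8), D130043K22Rik, 2010300C02Rik (Cracdl), E130308A19Rik and 1700030K09Rik had 4 each, and Gm42517 had 3 with 1110 bases. In 6430548M08Rik the widest peak reached 779 bases with a p of 1e-275. In A830010M20Rik all 4 peaks had a listed p between 1e-101 and 1e-123. These strong peaks without a KO counterpart stood beside weak ones of the same kind, such as those of 1700017B05Rik, whose listed p ran from 1e-22 to 7.9e-08.

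Among long noncoding members, A930004D18Rik had most WT peaks, 5 with 811 bases, all in the weakest class and with midpoints 853 to 2794 bases from the gene end. Norad (2900097C17Rik), whose gene lies at chr2:156388063-156392979, had WT peaks of 151 and 241 bases with listed p of 5e-19 and 1e-155, and no KO peak. Pseudogenes with WT peaks alone included 5830417I10Rik with 3 peaks, and 4632415L05Rik, B630019K06Rik and Gm14057 with 2 each. Of 255 members with a WT peak, 161 (63.1%) had a single one, against 50.4% of all genes, and 14 (5.49%) had 4 or more, against 11.4%.

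Some genes in both lists had their KO peak elsewhere. In 9130024F11Rik, a long noncoding gene with 4 WT peaks, the KO peak of 61 bases lay between them. In D430019H16Rik the WT peak with the lowest p, listed at 0, covered 300 bases, while the KO peak of 211 bases (p 1e-100) lay before it, 3822 bases from the gene end. In 1600014C10Rik a WT peak of 181 bases and a KO peak of 571 bases, 498 bases from the gene end, shared no base. 9930014A18Rik had 3 WT peaks near its start and a KO peak of 151 bases further on.

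Members with KO peaks alone were mostly long noncoding, and their peaks were few and weak. Their 146 genes held 150 KO peaks, 116 of them in long noncoding genes, 24 in protein-coding genes and 10 in pseudogenes. Weak peaks of this kind were not particular to members. KO peaks over no WT peak had a median listed p of 1.3e-11 in members (170 peaks) and 6.3e-13 in other names (1407 peaks). Over all KO peaks it was 3.2e-15. Only 8 of the 150 peaks fell in the strongest of 5 classes of the KO list by p, and 40 in the weakest. The widest was that of Gm15506, 570 bases at chr7:98686952-98687521 with a listed p of 6.3e-80, in a long noncoding gene that starts 108 bases from the divergent coding gene Thap12. Next by summed width came 4931406B18Rik, a coding gene (389 bases, p 4e-63), Gm42274 (359 bases, p 2e-30), Gm43915 (332 bases over 2 peaks) and 4932412D23Rik (331 bases), the last of them opposite Zbtb20. E330033B04Rik, A330076C08Rik, Gm11240, Gm5347 and Gm6117 followed with 298 to 330 bases.

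Many of these KO peaks had p-values that recur in the list. In the KO list 22 p-values were each listed for at least 20 entries, 2.2e-08 for 81 of them and 5.4e-10 for 76, so that a peak with such a recurring value shares its rank with many others. Recurring p-values were listed for 123 of 196 KO member peaks (62.8%, 55.8 to 69.2), against 21.9% of all KO peaks. By the same rule the WT list gave 35.2% of member peaks and 31.6% of all peaks. The limit of 20 entries is easier to meet in the longer WT list. Its recurring values also include very small ones, 1e-102 for 52 entries the most frequent. The WT and KO shares are therefore not like for like. In KO a recurring value was listed for 70.1% of peaks in long noncoding and 42.6% in protein-coding members. Of the 123, only 2 lay over a WT peak (1.63%, 0.447 to 5.74), while of the 73 member peaks with other p-values 24 did (32.9%, 23.2 to 44.3). In genes with other names these shares were 29.4% and 66.9%. Among the 150 KO peaks in members without a WT peak, 116 had a recurring value (77.3%, 70.0 to 83.3). Those of Gm43915, 4932412D23Rik and Gm5347 were among them, and those of Gm15506, 4931406B18Rik and Gm42274 were not. Of the 687 KO peaks in genes with other names and no WT peak, 344 had a recurring value (50.1%, 46.3 to 53.8). Without the peaks that had a recurring value, 35 members in place of 146 were in KO alone. The part of these values in the count of KO-only genes was otherwise not tested.

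**Figure D5:**
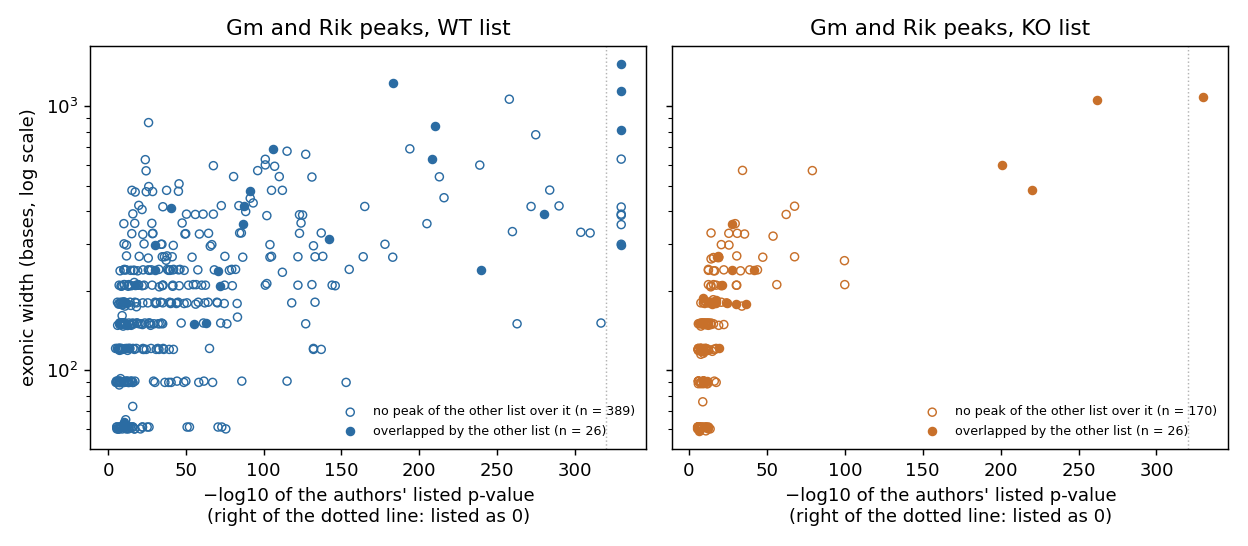
Each circle is a Gm or Rik peak of the WT list (left, blue) or the KO list (right, orange), placed by the size of the authors' listed p-value (minus log10, higher is stronger) and its exonic width in bases on a log scale; filled circles are overlapped by a peak of the other list, and circles right of the dotted line have a p listed as 0. Among the KO peaks, the 4 circles farthest to the right are filled.

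Peaks near the end of the gene were frequent among KO members. The midpoint lay within 1000 bases of the gene end in 75 of 194 placed KO member peaks (38.7%, 32.1 to 45.7), against 16.8% of all KO peaks. The share was 35.8% in long noncoding and 45.7% in protein-coding members. For KO peaks in genes with other names it was 25.5% (15.3 to 39.5) in long noncoding and 15.2% in protein-coding genes. Among KO peaks in genes without a WT peak, members and other names were closer. There it was 41.2% for members (61 of 148, 33.6 to 49.3) and 35.2% for other names (241 of 685, 31.7 to 38.8). Of the WT member peaks, 88 of 411 lay near the end (21.4%, 17.7 to 25.6), against 16.5% of all WT peaks. In long noncoding genes this was 23.5% for members and 23.0% for other names, in protein-coding genes 19.3% and 16.3%. Gene starts, within 200 bases, held 7.79% of WT and 7.22% of KO member peaks, against 4.39% and 4.17% of all peaks. In long noncoding genes starts held 11.2% of WT member peaks and 9.46% of WT peaks of other names, and in KO 8.03% and 6.38%. In protein-coding genes these were 4.93% and 4.26% in WT, and 2.17% and 3.93% in KO. Distances run along the chromosome, introns included, so short genes place more of their length near an end. The length of the members was not taken into account.

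Many members lie across another gene, which bears on whose RNA a peak measures. The span of 112 of 400 placed members (28.0%, 23.8 to 32.6) overlapped a protein-coding gene on the opposite strand, against 14.3% of all genes with a peak, and 79 of these 112 were long noncoding. Among long noncoding genes the share was 33.8% for members and 32.3% for other names. In 27 members (6.75%) the span overlapped a coding gene on the same strand, against 2.32% of all genes with a peak. Among long noncoding genes that share was 4.70% for members and 12.9% (6.69 to 23.4) for other names. Among protein-coding genes it was 9.22% (5.47 to 15.1) and 1.96%. The start lay within 1000 bases of the start of a divergent coding gene in 45 members (11.2%, 8.51 to 14.7), against 7.51% of all genes. Among long noncoding members this was 14.5%, and among all long noncoding genes with a peak 14.2%. Examples are C130046K22Rik, whose start is 1 base from that of Gosr2, 2810004N23Rik (4 bases from Gnpat) and 9430021M05Rik (16 bases from Ptprt).

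On 55 of 415 WT member peaks (13.3%, 10.3 to 16.9) a peak of the same list lay on the opposite strand, against 1.93% of all WT peaks. They formed 56 pairs, 54 with a gene of another name and 2 between the members A930004D18Rik and Gm17762, and in 49 of them the member was long noncoding. The median share of the member peak that its partner covered was 79.2%. In 14 pairs both borders agreed within 30 bases. Of the 53 pairs with both p-values above 0, 17 had p-values within 10-fold of each other, 5 had equal values as listed, to 2 digits at most, and the median difference was 3.19 on the −log10 scale. Of those 5 values, 3 recur in the WT list.

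A730035I17Rik and Prdm8, a transcription factor gene of cortical neurons, had WT peaks of 417 and 420 bases that shared 400 bases, listed at 1e-165 and 1e-168. A230070E04Rik lay with all 866 bases of a peak over Nefm, the gene of a neurofilament subunit, at 1.3e-26 against 2.5e-26. Gm17484 and Bag4 were listed at 1e-125 and 1e-124, and 9530082P21Rik and Flywch1 at 7.9e-63 and 5e-63. The retained peak of Gm12992 shared 742 of its 810 WT bases with the splicing factor gene Srsf4, both at 0, and in KO the 2 peaks were both listed at 1e-220. In the KO list 6 of 196 member peaks (3.06%, 1.41 to 6.52) had an opposite-strand peak over them, against 0.545% of all KO peaks. Of the 6 pairs they formed, 4 had equal p-values as listed. In 2 of the 4 the value recurs in that list, 9.1e-07 for 75 entries (A930003O13Rik and Lhfpl3) and 6.3e-11 for 28 (A730035I17Rik and Prdm8).

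The kit was stranded per the labels, but no source used here says whether reads were counted by strand. If they were not, reads of a member and of its antisense partner cannot be told apart. Of the 26 retained member peaks, 4 lay in such pairs, those of Gm12992, Gm15612, 1700003D09Rik (opposite Ppp1r1b, the gene of DARPP-32) and Gm10532 (opposite Ctif). Without all peaks that share bases with a peak of another gene name on either strand, 5.74% of WT member peaks were retained and 11.0% of KO member peaks lay over a WT peak.

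Values for a list of noncoding RNAs with approved names depended in part on Meg3. From a list of 45 such genes, 17 had a WT peak, 13 a KO peak and 5 a KO peak alone. Of their 36 WT peaks 13 were retained (36.1%, 22.5 to 52.4), against 12.9% of all WT peaks. Of their 29 KO peaks 15 lay over a WT peak (51.7%, 34.4 to 68.6), against 57.1% of all KO peaks. A recurring p was listed for 3 of the 29 (10.3%, 3.58 to 26.4), against 21.9%. The imprinted RNA Meg3 had 9 WT and 9 KO peaks with 7 of the WT peaks retained, and held most of the retained peaks of the list. Without it 6 of 27 WT peaks (22.2%, 10.6 to 40.8) were retained, an interval that included the share of all WT peaks. Of 20 KO peaks 7 lay over a WT peak (35.0%, 18.1 to 56.7). All long noncoding genes with names outside the rule, without Meg3, gave 12.3% (6.37 to 22.5) and 23.7% (13.0 to 39.2). Miat had 2 of 4, Malat1 1 of 2 and Neat1 1 of 3 retained. H19, Tug1 and Oip5os1 had WT peaks alone (3, 2 and 2), and Jpx, Ftx, Kcnq1ot1, Emx2os and Firre had KO peaks alone. The list was compiled with earlier results of these data known, and its genes are few.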

How the data were processed

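The authors deposited a consensus m6A peak list for each genotype. Per the labels, IP and input libraries came from a stranded mRNA kit, and per the submitters' processing notes STAR and GRCm38 were used. No source used here gives the peak caller, its thresholds, its use of strand or how libraries were combined. The deposited score was taken for a p-value of the caller, since values ran from 0 to 0.00015 in WT and to 4.4e-06 in KO. Whether it is a q-value is not stated.

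Entries overlapping by exonic blocks on 1 strand were merged. A WT peak was retained where a KO peak covered at least 1 exonic base on the same strand. Gene types, spans and starts came from RefSeq tables of GRCm38.p6. Shares have Wilson 95% intervals (Python 3.11.15, scipy 1.17.1), and the overlap code was tested on simulated data. Library depth is not recorded in the lists.

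Named genes were those with a retained peak, the 10 without a KO peak that had most WT peaks, the 10 with most KO peaks, the 10 without a WT peak that had the longest KO peaks, the 5 strongest and 5 widest in each list and the 5 with most peaks in each gene type. Values without Meg3 were added after the data were seen. Members in pairs with an opposite-strand peak, microRNA hosts, genes with divergent starts and the peaks whose sequence is shown were chosen after their values were seen. The members and lists were chosen with earlier results of these data known. The planned motif search in all peaks needs a genome sequence, which was not used here, and promoter windows took its place.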

Additional observations from a re-analysis of the deposited data

How the results depend on the processing

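No paired analysis was possible because each genotype has 1 consensus list without library values, and for the same reason no library could be left out. The motif search over all peaks was not run. Of 50 alternative values, 27 stayed within the interval of the reported share, or within 1.5 times the reported count, and 23 did not. The cause was not tested where the setting itself does not give it.

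The share of WT member peaks retained (6.27%) was 3.61% when a KO peak had to cover at least 50% of the peak, 3.37% where the shared bases had to make up at least 50% of the WT peak and of the KO peak, 14.9% when only the strongest WT peaks were kept, as many as the KO list holds, and 11.7% for Gm names alone. All WT peaks gave 6.52%, 6.26%, 28.6% and 12.9%. The share of KO member peaks over a WT peak (13.3%) was 7.65% with that 50% rule, 19.4% in the stronger 50% of each list, 5.10% with the shortened WT list, 32.9% without recurring p-values and 8.05% without protein-coding genes. For all KO peaks the first 4 of these were 25.6%, 61.9%, 32.5% and 66.0%. In each of these settings the member share was below that of all peaks.

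The stronger 50% of each list held 161 WT and 67 KO member peaks, with 101 genes in WT alone, 17 in both and 50 in KO alone. The shortened WT list held 74 member peaks, 45 genes in WT alone and 14 in both. Without recurring p-values 73 KO member peaks and 35 genes in KO alone were left. Gene ends within 500 and 2000 bases held 9.25% and 39.4% of WT and 26.8% and 54.6% of KO member peaks, against 7.50%, 32.6%, 8.59% and 28.5% of all peaks.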

Other observations

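Clustered protocadherins, the cell adhesion proteins from which neurons draw a surface identity, are hit by member peaks that carry several names. The WT peaks of Gm37013, Gm38666 and Gm38667 are shared with Pcdha4, Pcdha6 and Pcdha7, and the KO list holds a single peak for all 3 that it also assigns to the genes of the gamma cluster. That KO peak had 260 exonic bases and a listed p of 1.6e-100.

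Member peaks were spread over all chromosomes. Chromosome 5 held 50 of its 1105 WT peaks in members, and chromosome 10 held 16 of 712 in WT and 20 of 201 in KO. On chromosome 3 the counts were 18 of 644 and 3 of 154, and on X 9 of 359 and 9 of 131. No test was made of these counts.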
